A study of Arabidopsis thaliana with 36 samples.

Results

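The genes described here are expressed in leaves of the Arabidopsis thaliana accession Col-0 and close to absent from those of the accession Sei-0. Genes were selected on the pooled FPKM of both parents (fragments per kilobase of transcript, scaled to the mapped fragments). A gene was taken when its FPKM was at least 5 in Col-0 and at most 0.2 in Sei-0 at 1, 2 and 3 days post infiltration (dpi), and 77 of the 33557 genes listed met this rule. They are 0.605% of the 12728 genes with at least 5 FPKM in Col-0 on all 3 days. The levels in both parents chose these genes and are given as a description. The levels in the hybrids were not part of the rule. They are set against the single-dose level, which is 0.5 times the Col-0 FPKM of the same day, so each ratio holds a Col-0 value that the rule used and both hybrids share it.

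Leaf mRNA was sequenced from 4-week-old plants grown with 8 h of light per day. Their leaves had been infiltrated with the virulent bacterium Pseudomonas syringae pv. tomato DC3000 at a density of 100000 colony-forming units per millilitre. The 4 lines were the F1 hybrid Fsc, with Sei-0 as the mother, the F1 hybrid Fcs, with Col-0 as the mother, and the parents Sei-0 and Col-0, each sampled at 1, 2 and 3 dpi. All 12 groups were infiltrated, so none is an uninfected control. Each group had 3 libraries, each from at least 30 leaves, and the deposited tables give 1 pooled FPKM value per group, so no standard deviation, interval or test stands behind the values below. The tables hold no depth per library, and read numbers per library were not used here. Differences are given as ratios within a day, because the table of each day was normalised separately.

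All reads were aligned to the Col-0 genome, and a transcript that Sei-0 does not make cannot be told apart from one whose Sei-0 sequence is too diverged to align. In whole leaves, fewer cells of a type and less RNA per cell cannot be told apart either. The 5 leaf markers were between 30.8 and 17570 FPKM in every group. At 1 dpi all 5 were at least 1.5-fold below the mid-parent value in both hybrids, at 0.167 to 0.538 times in Fsc and 0.138 to 0.488 times in Fcs. At 2 and 3 dpi only LHCB2.1, a light-harvesting protein gene, was so low in both hybrids, and RCA was in Fsc alone (0.597 and 0.644 times). The marker CA1 went the other way on these days, at 3.62 and 3.78 times in Fsc and 1.57 and 1.86 times in Fcs. RBCS1A did so in Fsc at 3 dpi (1.69 times). The 4 seed markers were at most 0.0717 FPKM and the pollen marker VGD1 was listed at 0. Of the 4 root markers, PYK10 reached 23.9 FPKM and SCR 15.5 FPKM, EXPA7 was listed at 0 and WER was at most 0.0171 FPKM. Sums of FPKM per group were between 935587 and 1192350, and the median ratio of a group to Col-0 over genes at 5 FPKM or more lay within 0.0672 of 0 on the log2 scale.

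Accessions of A. thaliana differ in which genes they carry and express. Immune receptors of the NB-LRR class, which sense pathogen effectors inside the cell, are known for such differences, as are clustered gene copies, transposon-derived genes and genes of specialised metabolism. An F1 hybrid carries one genome copy from each parent, so a gene that only the Col-0 copy can supply is present there in a single dose. The single-dose level is then also the mid-parent value and serves as the yardstick here.

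Of the 77 genes, 51 code for proteins, 13 are non-coding RNA genes, 11 are pseudogenes, 1 is a snoRNA gene and 1 a tRNA gene. Protein-coding genes thus made up 66.2% of the set, against 97.9% of all genes with at least 5 FPKM in Col-0. By type, 16.4% of the expressed pseudogenes and 10.3% of the expressed non-coding RNA genes were in the set, against 0.409% of the expressed protein-coding genes. Annotated exon length had a median of 1465 bp, against 1765 bp over the 12728 expressed genes, and the mean Col-0 level had a median of 13 FPKM, against 24.6 FPKM. The mean Col-0 levels ran between 5.38 and 1093 FPKM, with 26 genes under 10 FPKM and 10 over 50 FPKM. In Sei-0, 14 genes were listed at 0 on all 3 days and 63 had a value above 0 on at least 1 day.

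Among gene families, 4 of the 75 expressed NB-LRR genes (5.33%) were in the set, among them CSA1, AT5G36930 and AT4G36140. DAR4 is annotated apart from them, under the DA1-related proteins and pairs an NB-LRR with a LIM domain. The receptor-like kinases gave 3 of 153 expressed genes, all of them cysteine-rich kinases (CRK4, CRK21 and CRK22). Genes annotated with the words transcription factor or as WRKY, MYB, bHLH, NAC or MADS proteins gave 2 of 303 (MYB29 and the MADS-box gene AT2G41440), and the AP2/B3-like factor AT3G53310 and LBD26, a LOB-domain gene, fell outside these words. There was 1 of 78 glycosyltransferases (UGT78D1) and 1 of 76 F-box proteins (AT5G42460). Proteins without a known function gave 19 of 1085. No gene of the set was among the 82 expressed cytochrome P450 genes, the 34 glutathione S-transferases, the 281 peptidases and inhibitors or the 318 transporters. Of all 12728 expressed genes, 0.605% were in the set. The 2 of 303 (0.660%) are near that share, and classes as small as the empty ones would hold few or no genes at it. These classes were read from annotation text, and no test was made of the shares.

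The set was spread over all chromosomes, with 14, 10, 19, 19 and 15 genes on chromosomes 1, 2, 3, 4 and 5, or 0.423%, 0.514%, 0.745%, 0.968% and 0.506% of the expressed genes there. In 5 pairs, 10 genes in all, the members lay next to each other with no listed gene between them, and 8 pairs, 16 genes, had at most 1 gene between them. The resistance-gene pair CSA1 and DAR4 (chr5:5908874-5923355, TAIR10) and the kinase pair CRK21 and CRK22 (chr4:12177738-12184704) are both arranged head to head. The pairs AT4G01593 and AT4G01595 (chr4:690710-692169) and AT5G66052 and AT5G66053 (chr5:26416126-26416924) are listed on opposite strands of a single locus, and reads of their members cannot be assigned to a strand with certainty.

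Genes beside the set, counted without members of the set, were often lower in Sei-0 too. Of the 141 nearest other genes on either side, 47 had at least 5 FPKM in Col-0, and their ratio of Sei-0 to Col-0 had a median of 0.596, against 1.01 over all expressed genes. In Sei-0, 31 of the 47 (66.0%) were at 0.5 times Col-0 or more, against 93.8% of all expressed genes. AT1G58590 and AT3G47675 (4.26% of the 47) were at 0.1 times Col-0 or less on all 3 days. Over all expressed genes this share was 1.12% (143 of 12728), which includes the 77 genes of the set. The 47 leave out the set by choice, so these 2 shares are not alike, and few neighbours near 0 could remain.

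The median gene of the set was close to the single-dose level in both hybrids on every day. The median ratio to the single-dose level was 0.888, 1.09 and 1.06 in Fsc at 1, 2 and 3 dpi. The Fcs medians of the same days were 0.968, 0.987 and 0.926. Among the 38 genes with at least 10 FPKM in Col-0 on all 3 days, the medians were lower at 1 dpi. They were 0.802, 1.12 and 1.16 in Fsc and 0.790, 0.922 and 0.932 in Fcs. Over all genes with a mid-parent value of at least 2.5 FPKM, the medians against the mid-parent value were 0.974, 0.964 and 0.955 for Fsc, with 0.988, 0.978 and 0.964 for Fcs. The quartiles of the 77 genes were 0.653 and 1.15 (Fsc, 1 dpi), 0.904 and 1.40 (Fsc, 2 dpi) and 0.923 and 1.36 (Fsc, 3 dpi). The Fcs quartiles were 0.655 and 1.39 (1 dpi), 0.804 and 1.21 (2 dpi) and 0.721 and 1.15 (3 dpi). On the log scale the quartiles of the set were thus farthest apart at 1 dpi in both hybrids. Over all genes, the quartiles against the mid-parent value were also farthest apart at 1 dpi in Fcs (0.724 and 1.24). In Fsc they were farthest apart at 3 dpi (0.729 and 1.25).

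A fold of 1.5 marks genes away from the single-dose level. On day 1, Fsc had 11 of the 77 genes at least 1.5-fold above it (8.98% of all genes were so far above the mid-parent value) and 20 at least 1.5-fold below it (18% of all genes). On day 2, Fsc had 14 genes above (7.76%) and 7 below (12.4%), and on day 3, 13 above (14.5%) and 8 below (20.4%). Fcs had 16 genes above (13.1%) and 20 below (21.1%) on day 1, 8 above (7.14%) and 7 below (8.96%) on day 2, and 5 above (8.88%) and 13 below (14.2%) on day 3. As shares of the 77 genes, these counts lay within 2-fold of the background except for the 14 genes above in Fsc on day 2, which were 18.2% of the set. No test stands behind this difference.

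**Figure D1:**
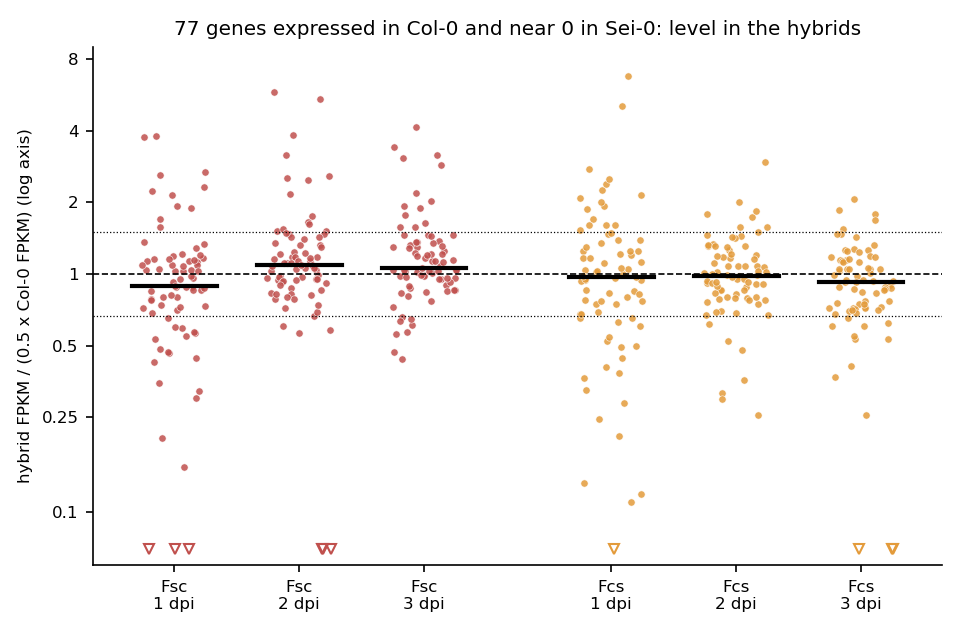
Ratio of the hybrid FPKM to 0.5 times the Col-0 FPKM of the same day (log axis) for the 77 genes in Fsc and Fcs at 1, 2 and 3 dpi. Each point is 1 gene with 1 pooled value per group, the thick bar is the median (0.888, 1.09 and 1.06 in Fsc, 0.968, 0.987 and 0.926 in Fcs), the dashed line marks the single-dose level, the dotted lines mark 1.5-fold either way, and open triangles at the bottom are values listed at 0.

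Across all 6 hybrid values, 25 genes stayed within 1.5-fold of the single-dose level (47.9% of all genes stayed that close to their mid-parent value), which is 32.5% of the set, and 42 (54.5%) stayed within 2-fold, against 72.6% of all genes. UGT78D1, MYB29 and the short gene AT3G44006 were at least 1.5-fold below in all 6 values (3.17% of all genes), and no gene of the set was above in all 6 (0.791%). On day 1, 9 genes were above in both hybrids (7.24%) and 15 below (14.7%), on day 2, 5 above (3.96%) and 3 below (6.95%), and on day 3, 5 above (8.07%) and 4 below (13.3%). Over the 70 genes of at least 300 bp, the log2 ratios of 2 and 3 dpi had a Pearson correlation of 0.76 in Fsc and 0.51 in Fcs, days 1 and 2 gave 0.33 for Fsc and 0.53 for Fcs, and days 1 and 3 gave 0.16 for Fsc and -0.13 for Fcs. The Spearman values for Fsc and Fcs were 0.67 and 0.55 for days 2 and 3, 0.22 and 0.40 for days 1 and 2, and 0.05 and -0.15 for days 1 and 3. These are correlations across genes that share their libraries, given as a description.

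Of the immune receptor genes, CSA1 and DAR4 were above the single-dose level in both hybrids on all 3 days. AT5G36930 was close to it or above it, and AT4G36140 was below it in both at 3 dpi. However, CSA1, AT5G36930 and AT4G36140 stayed within 1.5-fold of it in all 6 values. CSA1, a TIR-type NB-LRR, works as a pair with DAR4, also known as CHS3. For CSA1 the hybrids gave 5.27, 5.68 and 5.99 FPKM in Fsc and 5.71, 5.94 and 5.93 FPKM in Fcs, against at most 0.0186 FPKM in Sei-0 and 8.19, 9.95 and 10.5 FPKM in Col-0. All 6 values were between 1.13 and 1.40 times the single-dose level. The partner DAR4 had 5.22, 5.78 and 4.66 FPKM in Fsc and 6.14, 6.19 and 4.69 FPKM in Fcs, against at most 0.0266 FPKM in Sei-0 and 6.12, 9.5 and 9.06 FPKM in Col-0. At 1 dpi DAR4 was thus near the full Col-0 level in Fcs, at 2.01 times the single-dose level, and by day 3 it was at the single-dose level, with ratios of 1.03 for Fsc and 1.04 for Fcs.

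A further pair of TIR-type NB-LRR genes, described after their values were seen, stayed within 1.5-fold of the single-dose level in all 6 values. AT5G36930 (chr5:14567622-14572630) reached 9.90, 12.7 and 12.2 FPKM in Fsc and 9.0, 11.6 and 11.2 FPKM in Fcs, against at most 0.0840 FPKM in Sei-0 and 18.4, 19.2 and 21.3 FPKM in Col-0, or between 0.980 and 1.33 times the single-dose level. In AT4G36140 (chr4:17098956-17104479) the levels were 4.07, 3.38 and 2.94 FPKM in Fsc and 4.39, 4.45 and 2.62 FPKM in Fcs, against at most 0.0971 FPKM in Sei-0 and 7.49, 8.25 and 7.62 FPKM in Col-0. On day 1 its ratio was 1.09 for Fsc and 1.17 for Fcs, and on day 3 it was 0.772 for Fsc and 0.689 for Fcs.

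At the RPP4 and SNC1 resistance cluster of chromosome 4, AT4G16870 (chr4:9483955-9488397), a pseudogene, and AT4G16880 (chr4:9496185-9497313), a leucine-rich repeat gene, lie on either side of RPP4, a TIR-type NB-LRR for downy mildew resistance. AT4G16880 was at 36, 17.7 and 19.9 FPKM in Fsc and 41.3, 27.3 and 27.3 FPKM in Fcs, against 0.0906, 0.166 and 0.10 FPKM in Sei-0 and 65.9, 51.0 and 70.9 FPKM in Col-0. The pseudogene had 13.3, 6.06 and 6.71 FPKM in Fsc and 14.6, 8.33 and 6.30 FPKM in Fcs, against at most 0.0477 FPKM in Sei-0 and 23.3, 20.7 and 16.6 FPKM in Col-0. RPP4 between them was lower in Sei-0 without being near 0, at 79.1, 57.5 and 55.3 FPKM in Fsc, 84.1, 77.6 and 69.8 FPKM in Fcs, 12.8, 12.6 and 14.2 FPKM in Sei-0 and 96.8, 109 and 116 FPKM in Col-0. Their sequences were not compared, and how reads were divided among them was not tested.

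**Figure D2:**
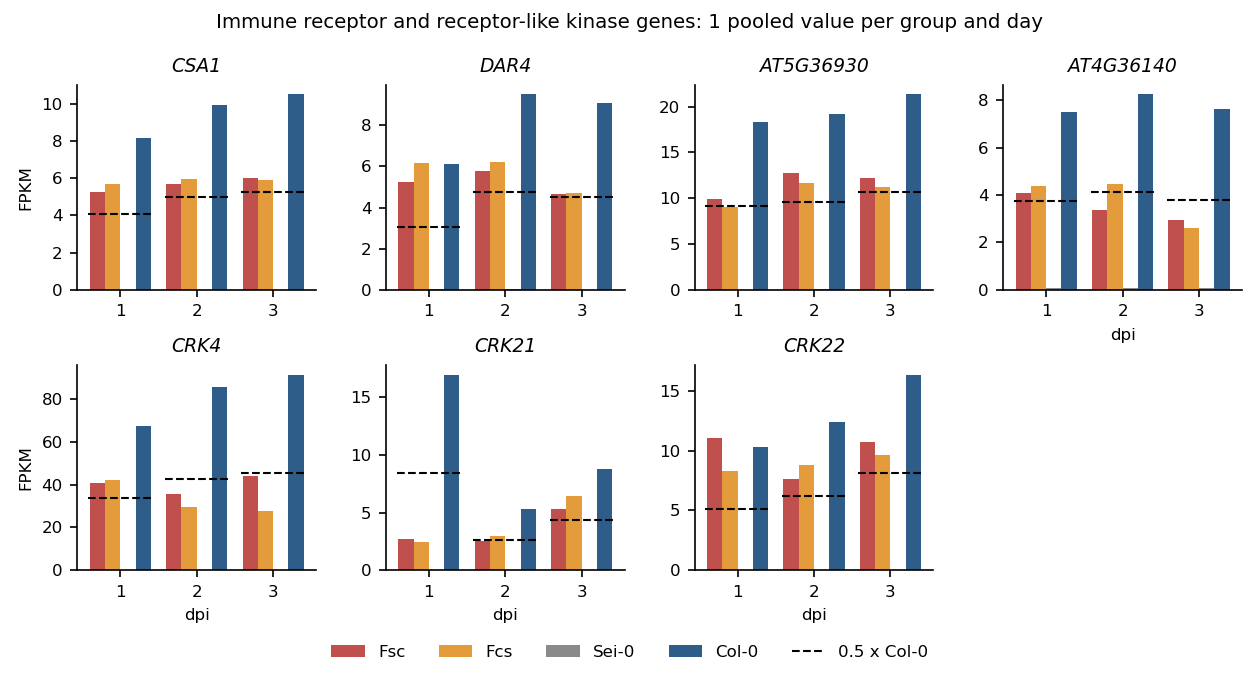
FPKM (1 pooled value per group) of 4 NB-LRR genes and 3 cysteine-rich receptor-like kinase genes at 1, 2 and 3 dpi in Fsc, Fcs, Sei-0 and Col-0, with a dashed line at 0.5 times the Col-0 value of each day. Sei-0 stays near 0 throughout, CSA1 and DAR4 lie above the dashed line in both hybrids on all days, and CRK21 lies far below it at 1 dpi only.

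The cysteine-rich receptor-like kinases, a family whose members take part in defence and cell death signalling, showed 3 different patterns. CRK4 (chr3:16863401-16866041) was the most abundant, with 40.8, 35.4 and 44.1 FPKM in Fsc and 42, 29.5 and 27.7 FPKM in Fcs, against 0.174, 0.130 and 0.125 FPKM in Sei-0 and 67.3, 85.4 and 91.2 FPKM in Col-0. It was at 1.21, 0.830 and 0.968 times the single-dose level in Fsc and at 1.25, 0.692 and 0.608 times in Fcs, so Fcs alone fell short by 1.5-fold, at 3 dpi. CRK21 had 2.74, 2.53 and 5.27 FPKM in Fsc and 2.44, 2.97 and 6.45 FPKM in Fcs, against at most 0.0183 FPKM in Sei-0 and 17.0, 5.32 and 8.75 FPKM in Col-0. Both hybrids were therefore far below the single-dose level on day 1, with ratios of 0.324 for Fsc and 0.288 for Fcs. The later ratios were 0.951 and 1.2 for Fsc and 1.12 and 1.47 for Fcs. CRK22, its neighbour, had 11.1, 7.60 and 10.7 FPKM in Fsc and 8.26, 8.82 and 9.66 FPKM in Fcs, against at most 0.0342 FPKM in Sei-0 and 10.3, 12.4 and 16.3 FPKM in Col-0. At 1 dpi CRK22 was thus 2.16 times the single-dose level in Fsc and 1.61 times in Fcs, on the other side of the single-dose level from CRK21.

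The flanking family members were expressed in Sei-0. CRK20, on the far side of CRK21, had 3.47, 1.53 and 1.32 FPKM in Fsc, 3.32, 2.31 and 1.78 FPKM in Fcs, 2.21, 2.55 and 2.30 FPKM in Sei-0 and 1.19, 1.40 and 1.05 FPKM in Col-0. CRK23, beyond CRK22, was at 2.67, 3.35 and 3.08 FPKM in Fsc, 2.60, 2.65 and 2.97 FPKM in Fcs, 2.97, 3.26 and 4.37 FPKM in Sei-0 and 2.74, 5.76 and 7.93 FPKM in Col-0. The drop to near 0 in Sei-0 was thus limited to the middle pair of the 4 neighbours.

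CRK21 and CRK22 are transcribed away from each other, and 688 bp lie between their starts in the RefSeq annotation of TAIR10.1. The 300 bases before each start are printed because a pair of genes with so short a common interval differed in the hybrids at 1 dpi. Neither holds the WRKY-binding W-box searched as TTGACC and TTGACT, or the G-box CACGTG, on either strand, which says only that these letters are not in these windows. Over the 32809 annotated start windows of this length, 13.5% hold TTGACC, 21.9% TTGACT and 6.43% CACGTG.
CRK21 (minus strand, chr4:12180937-12181236, TAIR10.1): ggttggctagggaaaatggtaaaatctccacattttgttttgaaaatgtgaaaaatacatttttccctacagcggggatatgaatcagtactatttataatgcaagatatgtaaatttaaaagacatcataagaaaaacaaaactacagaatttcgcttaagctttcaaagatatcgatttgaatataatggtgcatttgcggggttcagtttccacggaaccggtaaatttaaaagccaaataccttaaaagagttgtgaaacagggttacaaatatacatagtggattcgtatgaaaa
CRK22 (plus strand, chr4:12181325-12181624, TAIR10.1): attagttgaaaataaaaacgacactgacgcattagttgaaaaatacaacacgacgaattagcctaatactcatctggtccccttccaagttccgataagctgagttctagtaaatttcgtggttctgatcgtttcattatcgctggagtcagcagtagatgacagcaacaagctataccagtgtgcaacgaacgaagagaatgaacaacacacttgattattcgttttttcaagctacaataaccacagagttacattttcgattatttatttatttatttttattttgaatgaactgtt

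By the mean log ratio over the genes with all 6 hybrid values above 0, UGT78D1 and MYB29 lay farthest below the single-dose level, at a geometric mean of 0.318 and 0.334 times. AT3G44006, a short gene also below it in all 6 values, has no such mean because it was listed at 0 in some hybrid groups. MYB29 (chr5:2446764-2448543) encodes a MYB transcription factor that, with MYB28 and MYB76, controls the synthesis of aliphatic glucosinolates, the defence compounds derived from methionine. It had 3.39, 5.10 and 6.18 FPKM in Fsc and 2.62, 4.75 and 6.96 FPKM in Fcs, against 0.0113, 0.0261 and 0.0189 FPKM in Sei-0 and 43.9, 18.1 and 26.2 FPKM in Col-0. The ratio to the single-dose level was 0.154, 0.564 and 0.473 in Fsc and 0.120, 0.525 and 0.532 in Fcs. Both hybrids were thus farthest below it on day 1, the day on which the 5 leaf markers were also low in both hybrids. MYB29, UGT78D1 and CRK21 also had their highest listed Col-0 value on day 1, at 43.9, 68.2 and 17.0 FPKM. This Col-0 value enters each ratio of the day. What part the leaf markers' difference has in the day 1 values of MYB29, UGT78D1 and CRK21 was not tested.

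The neighbour MYB76 (chr5:2450325-2451578) was also low in the hybrids at 1 dpi and missed the rule because Col-0 dipped below 5 FPKM. It had 0.751, 1.28 and 2.12 FPKM in Fsc and 0.277, 1.11 and 1.41 FPKM in Fcs, was listed at 0 in Sei-0 on all days and had 5.70, 3.03 and 4.68 FPKM in Col-0. Its ratio to the single-dose level was 0.264, 0.846 and 0.905 in Fsc and 0.0972, 0.731 and 0.603 in Fcs, so on the later days only Fcs at 3 dpi was at least 1.5-fold below, unlike MYB29. The next gene, AT5G07710 (chr5:2453135-2455546), which encodes a ribonuclease H-like protein and is in the set, had 5.21, 4.72 and 4.27 FPKM in Fsc and 4.87, 4.05 and 3.51 FPKM in Fcs, against at most 0.0870 FPKM in Sei-0 and 9.19, 8.71 and 8.21 FPKM in Col-0. It stayed between 0.855 and 1.13 times the single-dose level, so 3 consecutive genes were near 0 in Sei-0 and only the MYB genes were low in the hybrids at 1 dpi. MYB28, elsewhere on chromosome 5, was expressed in both parents, at 16.3, 36.5 and 50.5 FPKM in Fsc, 11.6, 28.4 and 48.4 FPKM in Fcs, 21.1, 26.3 and 43.2 FPKM in Sei-0 and 46.8, 27.7 and 37.7 FPKM in Col-0. Both hybrids were thus below both parents for MYB28 at 1 dpi too, and above both parents at 2 and 3 dpi.

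UGT78D1 (chr1:10814659-10816583) encodes the enzyme that adds rhamnose to flavonols. It was at 6.99, 5.76 and 6.10 FPKM in Fsc and 3.75, 3.41 and 3.95 FPKM in Fcs, against 0.112, 0.0987 and 0.0964 FPKM in Sei-0 and 68.2, 19.1 and 21.3 FPKM in Col-0. Its ratio to the single-dose level was 0.205, 0.603 and 0.572 in Fsc and 0.110, 0.358 and 0.371 in Fcs, and Fsc was between 1.54 and 1.86 times Fcs on the 3 days. UGT78D2, which adds glucose to flavonoids, was present in both parents but also low in the hybrids, at 16.8, 16.2 and 10.2 FPKM in Fsc, 16.0, 14.7 and 13.4 FPKM in Fcs, 41.2, 28.9 and 36.4 FPKM in Sei-0 and 64.4, 49.3 and 57.7 FPKM in Col-0. The glucosyltransferase was thus below both parents in both hybrids on all 3 days.

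The 300 bases before the start of MYB29 and UGT78D1 are shown. Among the genes of at least 300 bp, only these were at least 1.5-fold below the single-dose level in all 6 values. Capitals mark a W-box (TTGACC, either strand), of which UGT78D1 has 1 and MYB29 none. Neither window holds TTGACT or CACGTG. Over the 70 genes of at least 300 bp, 13 (18.6%) hold TTGACC and 13 (18.6%) TTGACT, against 13.5% and 21.9% of all windows, and 2 (2.86%) hold CACGTG, against 6.43%. A match is a description of letters and not of a binding site.
MYB29 (plus strand, chr5:2446369-2446668, TAIR10.1): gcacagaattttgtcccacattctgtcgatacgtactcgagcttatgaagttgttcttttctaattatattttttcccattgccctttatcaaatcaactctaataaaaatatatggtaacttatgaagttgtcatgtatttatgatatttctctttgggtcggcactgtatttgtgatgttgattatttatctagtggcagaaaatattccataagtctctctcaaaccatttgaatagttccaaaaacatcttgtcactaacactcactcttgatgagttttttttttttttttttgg
UGT78D1 (plus strand, chr1:10814312-10814611, TAIR10.1): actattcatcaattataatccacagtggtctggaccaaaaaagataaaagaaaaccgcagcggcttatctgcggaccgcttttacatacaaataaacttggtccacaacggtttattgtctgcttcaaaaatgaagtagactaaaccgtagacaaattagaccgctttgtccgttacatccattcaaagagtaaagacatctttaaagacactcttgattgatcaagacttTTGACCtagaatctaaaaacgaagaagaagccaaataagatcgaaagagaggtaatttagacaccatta

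**Figure D3:**
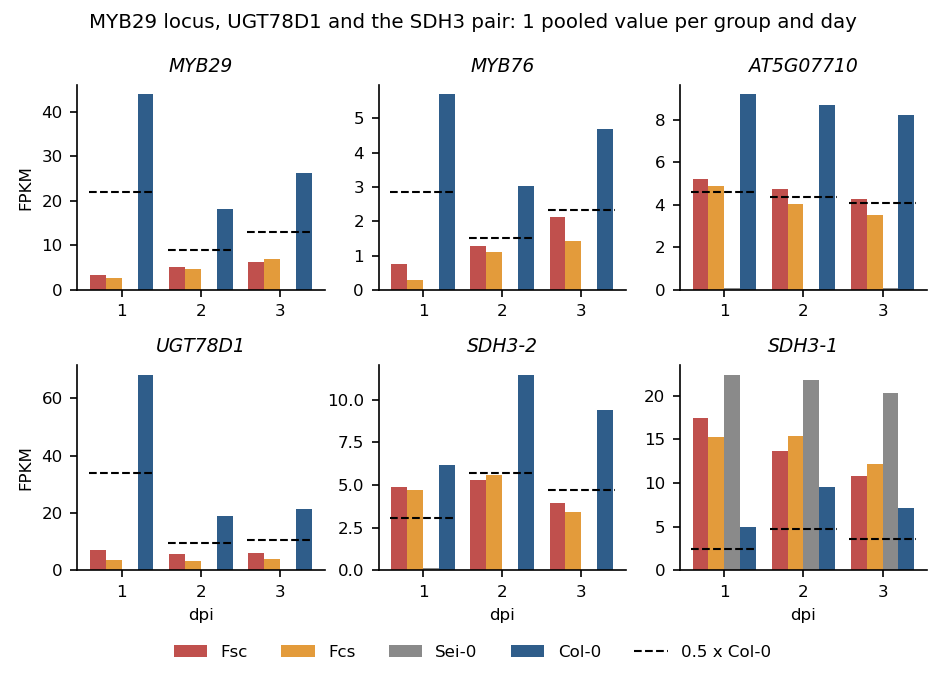
FPKM (1 pooled value per group) of MYB29, MYB76, AT5G07710, UGT78D1, SDH3-2 and SDH3-1 at 1, 2 and 3 dpi in Fsc, Fcs, Sei-0 and Col-0, with a dashed line at 0.5 times the Col-0 value of each day. MYB29 and UGT78D1 lie below the line in both hybrids on all days, and SDH3-1 is higher in Sei-0 than in Col-0 on all days while SDH3-2 is near 0 in Sei-0.

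SDH3-2 (chr4:15556415-15558125), chosen here after its values were seen, is 1 of 2 genes for the membrane anchor subunit SDH3 of mitochondrial succinate dehydrogenase. It had 4.89, 5.27 and 3.96 FPKM in Fsc and 4.73, 5.59 and 3.40 FPKM in Fcs, against 0.141, 0.0434 and 0.0101 FPKM in Sei-0 and 6.17, 11.5 and 9.39 FPKM in Col-0. The other copy, SDH3-1, had 17.5, 13.7 and 10.8 FPKM in Fsc, 15.3, 15.3 and 12.2 FPKM in Fcs, 22.4, 21.8 and 20.3 FPKM in Sei-0 and 4.97, 9.57 and 7.11 FPKM in Col-0. As listed, the 2 copies had similar FPKM in Col-0, while SDH3-1 held the larger part in Sei-0 and in both hybrids. SDH3-2 made up between 21.8% and 27.8% of the sum of both copies in the hybrids, at most 0.627% in Sei-0 and between 54.5% and 56.9% in Col-0. The sum itself was 22.4, 18.9 and 14.8 FPKM in Fsc, 20, 20.9 and 15.6 FPKM in Fcs, 22.5, 21.9 and 20.3 FPKM in Sei-0 and 11.1, 21 and 16.5 FPKM in Col-0. How reads were divided between the copies was not tested.

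AT2G34840 (chr2:14702488-14704353), also picked after its values were seen, encodes an epsilon subunit of the coatomer, the coat of vesicles that travel back from the Golgi. Its level was 5.72, 3.68 and 3.16 FPKM in Fsc and 6.18, 3.88 and 2.61 FPKM in Fcs, against at most 0.0160 FPKM in Sei-0 and 12.3, 11 and 8.63 FPKM in Col-0, so that it was near the single-dose level at first and between 0.604 and 0.731 times it on the later days. The other epsilon gene, AT1G30630, was the more abundant in every line, with 77.4, 56.7 and 43.9 FPKM in Fsc, 80.2, 64.9 and 43.7 FPKM in Fcs, 64.1, 56.1 and 44.3 FPKM in Sei-0 and 55.8, 74.3 and 56.3 FPKM in Col-0. Of the remaining enzymes, PLC8, a phosphoinositide-specific phospholipase C, and HSD2, a hydroxysteroid dehydrogenase, also picked after their values were seen, stayed within 1.5-fold of the single-dose level in all 6 hybrid values, at 0.782 to 1.21 and 0.822 to 1.37 times.

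LBD26 (chr3:10373251-10376461), a LOB-domain protein of the plant-specific family of transcriptional regulators, was among the 5 genes highest above the single-dose level. It had 6.11, 3.81 and 5.08 FPKM in Fsc and 4.44, 4.49 and 3.37 FPKM in Fcs, against at most 0.0306 FPKM in Sei-0 and 5.49, 5.14 and 5.72 FPKM in Col-0. At 1 dpi Fsc was thus above the Col-0 level itself. The MADS-box gene AT2G41440, picked after its values were seen, had 8.26, 6.43 and 4.02 FPKM in Fsc and 8.50, 5.71 and 2.93 FPKM in Fcs, against at most 0.0586 FPKM in Sei-0 and 6.17, 7.90 and 8.23 FPKM in Col-0. On day 1 both hybrids exceeded Col-0, with ratios to the single-dose level of 2.68 for Fsc and 2.76 for Fcs, and on day 3 the ratios were 0.979 for Fsc and 0.712 for Fcs.

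AT5G22520 (chr5:7478930-7479527), a protein-coding gene without a known function, had the largest drop in the mean ratio of both hybrids, which was 5.31 at 1 dpi and 0.530 at 3 dpi. It had 29.9, 10.5 and 2.13 FPKM in Fsc and 53.6, 15.7 and 3.02 FPKM in Fcs, against at most 0.060 FPKM in Sei-0 and 15.7, 15.6 and 9.71 FPKM in Col-0. The ratio to the single-dose level was 3.81, 1.35 and 0.439 in Fsc and 6.81, 2.01 and 0.622 in Fcs. In Fcs alone the ratio of AT4G21950 changed more, at 5.09, 0.793 and 0.256. The overlapping genes AT5G66052 and AT5G66053, both without a known function, went the other way. AT5G66052 was at 30.8, 73.1 and 74.6 FPKM in Fsc and 31.6, 35.1 and 40.6 FPKM in Fcs, against at most 0.134 FPKM in Sei-0 and 84.4, 38.1 and 43.7 FPKM in Col-0. Its ratio was 0.731, 3.84 and 3.41 in Fsc and 0.749, 1.84 and 1.86 in Fcs, so that from 2 dpi Fcs was near the full Col-0 level and Fsc above it. AT5G66053 on the opposite strand gave ratios of 0.724, 3.18 and 3.08 for Fsc and 0.768, 1.58 and 1.68 for Fcs, and the reads behind both may be the same. The genes on either side, AT5G66050 and AT5G66055, were at 24.7 to 51.0 FPKM in the hybrids, 32.1 to 48.9 FPKM in Sei-0 and 23.4 to 40.2 FPKM in Col-0, so the low Sei-0 level did not extend to them.

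In Fsc, the ratio to the single-dose level was lower on day 1 than on both later days for 40 genes (51.9%, against 40.8% of all genes relative to the mid-parent value) and higher for 21 (27.3%, against 45.5%). In Fcs these counts were 34 (44.2%, against 39.2%) and 32 (41.6%, against 47.5%). In all, 10 genes (13%, against 5.7% of all genes) were at least 1.5-fold below the single-dose level in both hybrids at 1 dpi and within 1.5-fold in both at 3 dpi, among them CRK21, AT3G44430, AT2G14285 and the overlapping AT4G01593 and AT4G01595. AT2G14285, a small nuclear ribonucleoprotein gene of the RNA processing machinery, had 12.2, 20.5 and 25.9 FPKM in Fsc and 11.3, 21.8 and 24.1 FPKM in Fcs, against at most 0.0375 FPKM in Sei-0 and 45.5, 33.1 and 38.5 FPKM in Col-0. The reverse course, above at 1 dpi and within 1.5-fold at 3 dpi in both hybrids, was seen in 4 genes (5.19%, against 3.21%), AT2G41440, CRK22, SDH3-2 and DAR4. No test stands behind these shares.

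Pseudogenes and non-coding RNA genes made up 24 of the 77. SADHU1-2, picked after its values were seen, belongs to the Sadhu retroelements and had 5.20, 7.47 and 5.82 FPKM in Fsc and 4.92, 5.43 and 4.80 FPKM in Fcs, against at most 0.0328 FPKM in Sei-0 and 22.2, 12.7 and 12.9 FPKM in Col-0. The adjacent pseudogenes AT2G13970 and AT2G13975 (chr2:5862536-5865600) were at 0.780 to 0.990 and 0.653 to 1.23 times the single-dose level, and only AT2G13975 in Fsc at 1 dpi was at least 1.5-fold below it. The most abundant of the 13 non-coding RNA genes, AT1G31258, was at 44.7, 90.3 and 91.1 FPKM in Fsc and 125, 107 and 93.8 FPKM in Fcs, was listed at 0 in Sei-0 and had 295, 184 and 178 FPKM in Col-0. Among the 5 lowest relative to the single-dose level were the non-coding RNA genes AT2G32795, at 0.484 to 0.992 times, and AT1G34844, at 0.470 to 0.960 times.

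Among the 15 genes highest in Col-0, 7 protein-coding genes have no known function, and of these only AT5G49440 stayed within 1.5-fold of the single-dose level in all 6 values. AT5G66052, AT5G66053, AT3G13240 and the short AT3G12835 departed from it by more than 2-fold and are described apart. AT5G42825 had 38.4, 53.0 and 72.1 FPKM in Fsc and 45.5, 36.1 and 50.8 FPKM in Fcs, against at most 0.179 FPKM in Sei-0 and 87.9, 70.9 and 87.5 FPKM in Col-0. AT5G49440 was at 30.2, 29.4 and 34.3 FPKM in Fsc and 37.3, 28.7 and 29.5 FPKM in Fcs, against at most 0.109 FPKM in Sei-0 and 50.2, 71.5 and 76.6 FPKM in Col-0. AT5G42825 ran between 0.873 and 1.65 times the single-dose level, and AT3G44430 was between 0.595 and 1.04 times it. The leucine-rich repeat gene AT3G43740 was between 0.911 and 1.31 times, and AT3G60980 and AT3G61010, a tetratricopeptide repeat gene and a ferritin-like gene with 1 listed gene between them, were between 0.784 and 1.12 and between 0.929 and 1.35 times.

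The 2 reciprocal hybrids carry the same nuclear genomes and differ in which parent was the mother. For 74 genes with a value above 0 in both hybrids on a given day, the median ratio of Fsc to Fcs was 0.943, 1.11 and 1.16 on days 1, 2 and 3, against 0.981, 0.995 and 0.999 over all genes. Fsc was higher for 29, 50 and 61 of the 74 genes at 1, 2 and 3 dpi, which is 39.2%, 67.6% and 82.4%, against 46.1%, 48.9% and 49.8% of all genes. On day 1, 7 genes were at least 1.5-fold higher in Fsc (6.14% of all genes) and 7 at least 1.5-fold lower (6.02%). On day 2 these were 11 (3.36%) and 1 (6.88%), and on day 3, 13 (3.77%) and 0 (6.13%). The set thus leaned towards Fsc, the hybrid with Sei-0 as the mother, at 2 and 3 dpi. With 1 pooled value per group this lean has no replicate check, and the genes of a day share their libraries.

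By the mean log ratio over the 3 days, the largest difference was in AT1G50290 (chr1:18627559-18628434), a protein-coding gene without a known function. It had 28.4, 33.2 and 22.6 FPKM in Fsc and 2.47, 2.93 and 3.81 FPKM in Fcs, against 0.0350, 0 and 0.0393 FPKM in Sei-0 and 15.2, 12.2 and 14.3 FPKM in Col-0. Fsc was thus above Col-0 itself on all 3 days, at 3.17 to 5.45 times the single-dose level, while Fcs was at 0.326 to 0.533 times, and the ratio of Fsc to Fcs was 11.5, 11.3 and 5.94. The flanking gene AT1G50300 did not share this, at 10.4, 11.1 and 11.1 FPKM in Fsc, 11.7, 10.4 and 10 FPKM in Fcs, 11.5, 11.7 and 9.33 FPKM in Sei-0 and 12.9, 12.3 and 12.4 FPKM in Col-0. AT1G50280 on the other side had 1.38, 2.63 and 3.99 FPKM in Fsc, 1.36, 2.1 and 3.25 FPKM in Fcs, 2.93, 3.36 and 3.23 FPKM in Sei-0 and 4.79, 1.64 and 1.99 FPKM in Col-0.

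AT3G13240 (chr3:4275760-4276240), also without a known function, differed on the first days only. It was at 59.3, 63.4 and 58.2 FPKM in Fsc and 4.07, 8.06 and 61.7 FPKM in Fcs, was listed at 0 in Sei-0 and had 61.4, 50.8 and 107 FPKM in Col-0, so the ratio of Fsc to Fcs was 14.6, 7.87 and 0.945. AT3G62460 (chr3:23104665-23105624), annotated as a putative endonuclease or glycosyl hydrolase, had 4.55, 3.83 and 4.84 FPKM in Fsc and 2.38, 1.21 and 1.94 FPKM in Fcs, against at most 0.0211 FPKM in Sei-0 and 9.58, 8.12 and 7.10 FPKM in Col-0. Fsc was near the single-dose level on the first days and Fcs below it throughout. Only AT1G50290, AT3G62460 and UGT78D1 were at least 1.5-fold higher in Fsc on all 3 days (0.748% of all genes), and no gene of the set was so much lower on all 3. The short non-coding RNA AT2G15128 had 6.12, 20.9 and 24.9 FPKM in Fsc and 8.08, 6.45 and 10.8 FPKM in Fcs, was listed at 0 in Sei-0 and had 11.7, 7.20 and 12 FPKM in Col-0.

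**Figure D4:**
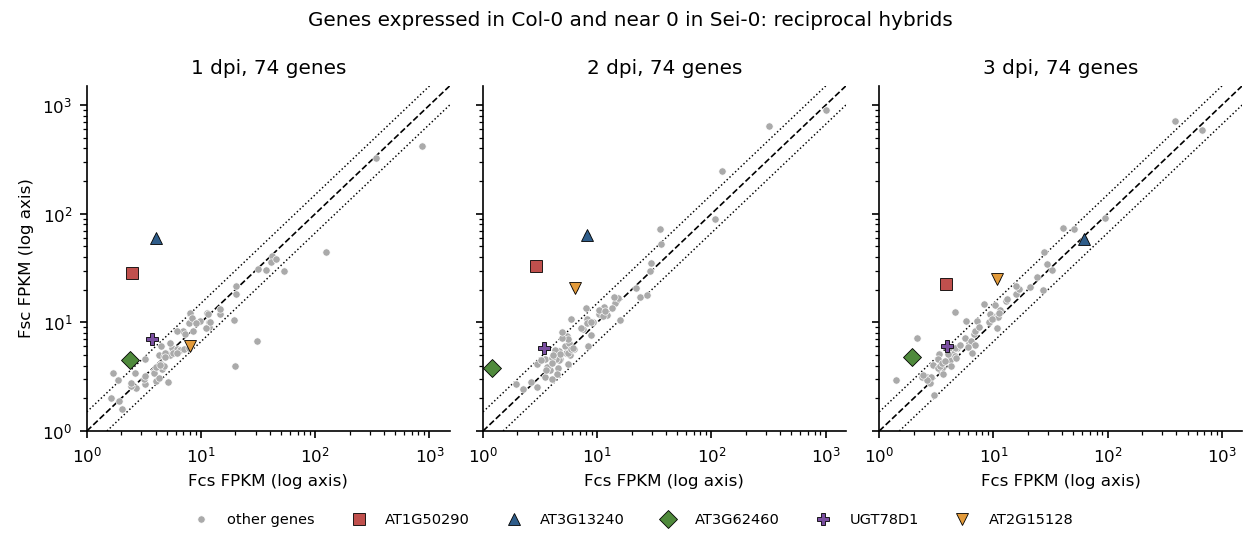
FPKM in Fsc against FPKM in Fcs (log axes) at 1, 2 and 3 dpi for the 74 genes per day with values above 0 in both hybrids. Each point is 1 gene, the dashed line marks equal levels, the dotted lines 1.5-fold either way, and the coloured symbols are the 5 genes with the largest mean difference. AT1G50290 lies far above the line on all days (11.5, 11.3 and 5.94 times), AT3G13240 only at 1 and 2 dpi.

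Short loci need separate mention. FPKM divides by length, so a short transcript reaches a high value on fewer fragments than a long one. Fragment numbers per gene were not listed, and the libraries came from mRNA selected with oligo(dT). AT1G31258 and AT5G66053, also among the genes highest in Col-0, have longer loci but 135 and 147 bp of annotated exon. In all, 7 genes have a locus under 300 bp, 4 of them (AT1G03506, AT3G12835, AT3G44006 and AT5G66607) were listed at 0 in at least 1 hybrid group, and none of the 70 longer genes was. The tRNA gene AT5G60285, annotated as tRNA-Leu, had the highest Col-0 level of the set, with 418, 893 and 595 FPKM in Fsc and 867, 1016 and 673 FPKM in Fcs, was listed at 0 in Sei-0 and had 724, 689 and 1867 FPKM in Col-0. The snoRNA gene AT1G03506 had 0, 248 and 100.4 FPKM in Fsc and 0, 122 and 0 FPKM in Fcs, was listed at 0 in Sei-0 and had 228, 325 and 128 FPKM in Col-0. AT3G12835 was listed at 0 in Fsc at 1 and 2 dpi and in Fcs at 3 dpi. The whole annotated sequences of both RNA genes are shown because their loci, of 81 and 87 bases, are the shortest of the set. The next shortest, AT3G12835 and AT5G66607, have loci of 105 and 114 bp.
AT5G60285 (tRNA-Leu, plus strand, chr5:24262580-24262660, TAIR10.1): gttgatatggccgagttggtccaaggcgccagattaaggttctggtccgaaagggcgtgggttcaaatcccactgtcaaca
AT1G03506 (snoRNA, minus strand, chr1:875518-875604, TAIR10.1): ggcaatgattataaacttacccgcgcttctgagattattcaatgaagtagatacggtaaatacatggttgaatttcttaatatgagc

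The thresholds cut through a continuous range. Just inside, AT2G06950 had a lowest Col-0 value of 5.11 FPKM and LBD26 of 5.14 FPKM, and the highest Sei-0 value was 0.199 FPKM in AT1G19394 and 0.184 FPKM in AT4G02540. Just outside, AT3G60960 dipped to 4.95 FPKM and AT3G27997 to 4.84 FPKM in Col-0, while AT3G47675 reached 0.201 FPKM and SADHU1-1 0.216 FPKM in Sei-0. SADHU1-1 was at 137 FPKM or more in Col-0.

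The opposite set, genes with at least 5 FPKM in Sei-0 and at most 0.2 FPKM in Col-0 on all 3 days, held 25 genes, or 0.201% of the 12424 expressed in Sei-0. Of these 16 code for proteins and 9 are pseudogenes. Only genes annotated in Col-0 can be listed, so the sizes of the sets cannot be compared as gene content. Relative to 0.5 times Sei-0, the 25 had medians of 0.775, 0.982 and 1.02 for Fsc at 1, 2 and 3 dpi. For Fcs the medians were 0.865, 0.919 and 1.21. Both sets thus had their lowest Fsc median at 1 dpi. The lowest Fcs median was at 1 dpi in the opposite set and at 3 dpi (0.926) in the Col-0 set. In 3 of the 25, the gene lay within 20 kb of a gene of the Col-0 set (12%, against 2.25% of the other 12651 genes expressed in Col-0 on all days), a relation noticed after the lists were made. The nearest was AT4G32208, an Hsp70 family gene, 0.401 kb from SDH3-2, with AT4G32230 at 7.17 kb from it, and AT5G36900 lay 19.4 kb from the NB-LRR gene AT5G36930.

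Of 24 loci known for variation among accessions, 20 had at least 5 FPKM in Col-0 on all 3 days and 1 was in the set. Several others were low in Sei-0 without meeting the rule. AOP2, a glucosinolate side-chain enzyme, had 2.74, 14.3 and 17.6 FPKM in Fsc and 1.26, 8.79 and 15.7 FPKM in Fcs, against 0.142, 0.172 and 0.856 FPKM in Sei-0 and 44.8, 26 and 41.6 FPKM in Col-0. It missed the rule at 3 dpi only. RPP7, a coiled-coil NB-LRR for downy mildew resistance that overlaps the pseudogene AT1G58561 of the set, had 56.0, 83.8 and 69.3 FPKM in Fsc and 62.4, 73.2 and 54.1 FPKM in Fcs, against 11.4, 11.8 and 14.7 FPKM in Sei-0 and 63.2, 102 and 99.5 FPKM in Col-0. Reads of AT1G58561 may therefore belong to RPP7.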

How the data were processed

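The authors aligned mRNA-seq reads to TAIR10 with TopHat (Bowtie in the submitters' processing notes) and ran Cufflinks, Cuffmerge and, under a Poisson model, Cuffdiff. Tool versions are not given in the sources used here. Their deposited tables, 1 per day, hold 1 pooled FPKM per gene and group, from 3 libraries, with columns of their own log2 fold changes, test statistics, p-values and q-values, which were not used.

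Ratios were computed here from FPKM within a day, without a pseudocount. Ratios to the single-dose level (0.5 times Col-0) were read against ratios to the mid-parent value over genes with a mid-parent value of at least 2.5 FPKM, at folds of 1.5 and 2. The result of 1 gene is not reported here. No test was possible on 1 value per group. Coordinates are TAIR10 as deposited, written from 1. Names, types and sequences came from RefSeq TAIR10.1, which matched all 77 genes and 32810 of 33557 identifiers. Named genes were the 15 highest in Col-0, the 5 highest and 5 lowest relative to the single-dose level, the 5 that differed most between hybrids, neighbouring genes, the variation list and the genes at the thresholds. The set and the lists were chosen with earlier results of these data known. Other genes are named beside them as copies or neighbours. Alternatives were a pseudocount of 1 FPKM, scaling of groups to the same median, other thresholds and folds, and leaving out overlapping genes. Leaving out loci under 300 bp was chosen after seeing the data. The scripts were tested on simulated data and used Python 3.11.15, NumPy 2.4.6 and pandas 2.3.3.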

Additional observations from a re-analysis of the deposited data

Results flagged for a closer look

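AT1G50290 lay on opposite sides of the single-dose level (0.5 times Col-0) in the hybrids on all 3 days, with Fsc at least 1.5-fold above and Fcs at least 1.5-fold below, and the geometric mean of the ratio of Fsc to Fcs was 9.18. AT5G22520 changed sides between days in both hybrids, with a mean ratio of both hybrids to the single-dose level of 5.31 at 1 dpi and 0.530 at 3 dpi. Neither difference was tested, because each group has 1 pooled value.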

How the results depend on the processing

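No paired analysis was possible because the tables hold 1 pooled value per group. For the same reason no library could be left out. The 9 medians (6 hybrid ratios to the single-dose level and 3 ratios of Fsc to Fcs) moved by at most 1.23-fold under the 42 alternative values computed, and a pseudocount of 1 FPKM or scaling of the groups kept every count within 1.5 times. The size of the set follows its thresholds, with 14 genes when Sei-0 must be listed at 0, 38 with Col-0 at 10 FPKM or more and 129 with Col-0 at 2 FPKM or more, against 77. A fold of 2 by construction counts fewer genes. At this fold Fsc had 7, 8 and 7 genes above and 13, 3 and 2 below at 1, 2 and 3 dpi. Fcs had 9, 2 and 1 above and 14, 5 and 6 below. Fsc exceeded Fcs for 3, 7 and 6 genes and was lower for 4, 0 and 0. The share of all genes at this fold was not counted for each day, so these counts have no background. Among the 38 genes at 10 FPKM or more, Fsc had 4, 10 and 8 above and 15, 5 and 5 below at 1, 2 and 3 dpi. Fcs had 6, 5 and 4 above and 14, 5 and 7 below. These counts are out of 38 and not 77, so they are smaller by construction, and no share of all genes was counted at this threshold. Of the 20 genes below at 1 dpi in each hybrid, 15 in Fsc and 14 in Fcs were thus among these 38. Leaving out the 10 overlapping genes left 5 above in Fcs at 2 dpi and 3 at 3 dpi. Leaving out the 7 loci under 300 bp left 4 below in Fsc at 2 dpi, 3 above in Fcs at 3 dpi and 4 lower in Fsc than in Fcs at 1 dpi.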
